A study of Mus musculus with 36 samples.

Results

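Between 2 h and 4 h of IL-1β, control fibroblast-like chondrocytes raised 33 of 38 interferon response genes and 13 of 17 acute-phase and complement genes. They lowered 21 of 26 cholesterol synthesis genes and 12 of 26 immediate-early transcription factors. Of all genes tested, 16.9% rose and 10.2% fell. The comparison used the 3 libraries of control cells taken at 4 h and the 3 taken at 2 h, chosen by their labels, which are 6 of the 36 libraries of the time course. Poly(A) RNA had been sequenced from a mouse fibroblastic chondrocyte line of wild-type genotype. Control cells received a non-targeting pool of siRNA (NT) and the others a pool against *Ift88* (IFT88siRNA), at 50 nM per the labels, where the study's methods give a lower concentration. They grew to confluence, and 48 h after transfection were given vehicle (0 h) or IL-1β at 10 ng/ml for 1, 2, 4, 8 or 24 h, with 3 replicates per condition. Untreated cells were taken at 0 h only, so effects of IL-1β and of time in culture cannot be told apart. The line is conditionally immortalised and 1 line stands for all samples, so the replicates are not animals. Nothing says that they were separate cultures, and the p-values then measure only the spread between these samples.

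IL-1β signals through its receptor and MyD88 to the IκB kinases and the MAP kinases. The primary wave consists of genes that pre-existing factors such as NF-κB, AP-1 and the serum response factor can switch on without new protein. Among them are immediate-early transcription factors, chemokines and the inhibitors that shut the pathway off again. Genes that need a protein made in the primary wave, for example IκBζ, a C/EBP factor or an autocrine cytokine such as interferon-β or IL-6 that acts through STAT proteins, follow later as secondary response genes. In cartilage, late products of this kind include nitric oxide synthase, prostaglandin E synthase, collagenases and acute-phase proteins.

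The 6 NT libraries at 2 h and 4 h held 19599461 to 24494947 counts on genes each. Levels are given as CPM, counts divided by the library total and scaled by the trimmed mean of M-values (TMM). The call threshold was 1.5-fold together with 0.05 for the adjusted p, and the verbs rose and fell are kept for called changes from 2 h to 4 h. In bulk RNA, fewer cells of a type and less RNA per cell cannot be told apart. Of the fibroblast markers, *Col1a2* was at 968 TPM (a unit scaled for transcript length and depth) at 2 h and *Lum* at 0.913 TPM. Of the chondrocyte markers, *Col11a1* averaged 87.2, *Sox9* 32.6, *Comp* 19.3 and *Hapln1* 9.45 TPM, whereas *Col2a1* was at 3.03, *Acan* at 0.165 and *Col9a1* at 0 TPM. Macrophage-defining *Ptprc* and *Adgre1* were at or under 0.0527 TPM and *Tyrobp* was listed at 0 in all 6 libraries, while *Cd14* averaged 9.95, *Cd68* 5.74 and *Lyz2* 3.09 TPM at 2 h. Replicate 2 at 2 h stood apart from the other 2 h libraries, with chi-square values per degree of freedom of 5.91 and 9.88 against replicates 1 and 3, which gave 2.84 between them. Pairs of IFT88siRNA libraries reached 8.21. Replicate 2 was the lowest of the 3 NT libraries at 2 h for 64.6% of the genes that were already raised at 2 h and then rose further. For genes within 1.5-fold of 0 h at 2 h, replicate 2 was the lowest in 53.4% of those that rose. In those that fell from such a level, replicate 2 was the highest in 59.2%. Without it, 2417 genes rose and 1567 fell.

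Of 14874 genes tested, 2520 (16.9%) rose and 1523 (10.2%) fell within these 2 h, and the median log2 fold change over all genes was 0.0019. Rises were also larger than falls. A fold change over 4 was reached by 427 of the rises and 52 of the falls, and one over 16 by 63 rises and 1 fall. Of the genes that rose, 1363 had their highest NT mean of the whole time course at 4 h, 615 at 8 h and 281 at 24 h. Genes that fell had most often been highest at 1 h (685 genes) or 2 h (602 genes).

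**Figure D1:**
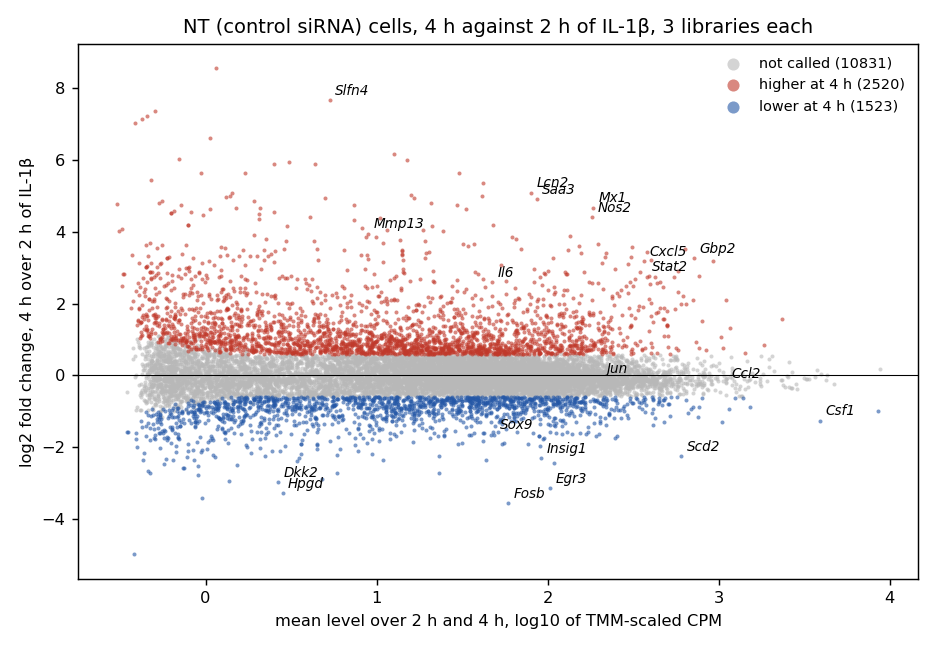
Each dot is 1 of the 14874 tested genes, with the log10 of its mean CPM over the 6 NT libraries on the x axis and its log2 fold change from 2 h to 4 h on the y axis. Red dots are the 2520 genes called higher and blue dots the 1523 called lower, and the upper arm reaches further from 0 than the lower.

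The 12 largest rises among genes with a mean of at least 50 counts over the 6 libraries came mostly from interferon-inducible families. The 4 h libraries alone can meet that mean. A gene with few reads at 2 h can thus enter, and the size of its fold change is then imprecise. *Slfn4* (Schlafen 4, chr11:83175186-83190216, plus strand) had 1, 1 and 1 reads at 2 h and 165, 204 and 248 at 4 h. With only 3 reads in all at 2 h, the ratio of reads, scaled for the library totals, was 225 with an exact 95% counting interval from 76.6 to 1094. *Pax5*, known as a B-cell transcription factor (chr4:44524757-44710487, minus strand), stood at 0.417, 0.228 and 0.40 CPM at 2 h and 25.4, 22.7 and 26.8 CPM at 4 h (log2 fold change 6.17 ± 0.169 (SE), edgeR adjusted p = 1.79e-12). Several annotated genes lie within *Pax5* on either strand, and the counting ignored strand, so its reads may be shared with them. *Phf11a* rose from 0.0918 to 6.1 CPM and *Trim30c* from 0.14 to 8.63 CPM. The pseudogene *Ifi203-ps* (5.99), *Ifi206* (5.62), *Ifi208* (5.35), *Trim14* (5.02), *Ifi209* (5.01), *Gbp2b* (4.94) and *Slfn5* (4.93) also belonged to the 12 by log2 fold change. Members of these families are close copies of each other, so how reads were divided among them is uncertain.

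*Lcn2*, which encodes the iron-sequestering protein lipocalin 2, completed the group. It was measured at 4.64, 2.64 and 6.62 CPM at 2 h and 153, 146 and 167 CPM at 4 h (log2 fold change 5.09 ± 0.156 (SE), edgeR adjusted p = 4.85e-12). It averaged 329 CPM by 8 h, then 1199 CPM by 24 h.

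The largest falls by the same rule were led by *Fosb*, *Hpgd* and *Egr3*. *Fosb*, a subunit of the AP-1 transcription factor (chr7:19302696-19310051, minus strand), dropped from 109 ± 9.09 to 9.16 ± 1.38 CPM (SD, n = 3; log2 fold change −3.55 ± 0.0955 (SE), edgeR adjusted p = 1.57e-12). *Hpgd*, the enzyme that inactivates prostaglandins (chr8:56294585-56321043, plus strand, overlapping *Gm45540*), was at 4.9, 5.7 and 4.75 CPM at 2 h and 0.793, 0.459 and 0.319 CPM at 4 h (log2 fold change −3.27 ± 0.247 (SE), edgeR adjusted p = 5.82e-08). *Egr3*, an early growth response factor, had 187, 206 and 169 CPM at 2 h and 20.6, 19.5 and 22.8 CPM at 4 h (log2 fold change −3.13 ± 0.0805 (SE), edgeR adjusted p = 1.14e-12). In all of these, every library at 4 h lay below every library at 2 h. *Dkk2*, a secreted Wnt antagonist, fell by 2.98 on the log2 scale, *Nfatc1*, a calcium-responsive transcription factor, by 2.43, and *Egr4* by 2.35. *Papolb*, *4833423E24Rik*, *Ano5*, *Galnt15*, *Arhgap18*, *Insig1* and *Apol8* made up the rest, with falls between 2.29 and 2.88.

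The promoters of the 3 largest rises and 3 largest falls with an entry are shown with that of *Lcn2*, added after its values were seen, so that the letters upstream of genes that moved most can be read beside their values. *Ifi203-ps* and *Egr3* have no entry. The sequences are RefSeq's on GRCm38.p6, from 250 bases before to 50 after the transcript start, printed on the gene's strand from 5′ to 3′. Capitals mark matches, on either strand, to the AP-1 motif TGANTCA, the cyclic AMP response element TGACGTCA, the C/EBP motif TTGCNNAA, the TATA box TATAAA, the NF-κB motif, the CArG box of serum response factor, or the interferon-stimulated response element (ISRE: TTTC repeated after a pair of any bases). The last was added after the values were seen.
Slfn4, chr11:83174936-83175235, plus strand: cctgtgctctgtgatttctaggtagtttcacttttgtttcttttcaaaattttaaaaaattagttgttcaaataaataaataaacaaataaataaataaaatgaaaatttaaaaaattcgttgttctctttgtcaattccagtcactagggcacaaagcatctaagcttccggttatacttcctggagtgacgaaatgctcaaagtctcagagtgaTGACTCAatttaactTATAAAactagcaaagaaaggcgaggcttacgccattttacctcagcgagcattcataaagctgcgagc
Pax5, chr4:44710645-44710944, minus strand: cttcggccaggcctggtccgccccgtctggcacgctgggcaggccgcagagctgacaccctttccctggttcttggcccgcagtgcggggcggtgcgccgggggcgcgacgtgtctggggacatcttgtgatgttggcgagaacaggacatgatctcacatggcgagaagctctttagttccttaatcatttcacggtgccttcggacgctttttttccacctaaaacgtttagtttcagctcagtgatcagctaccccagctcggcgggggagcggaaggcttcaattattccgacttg
Phf11a, chr14:59297473-59297772, minus strand: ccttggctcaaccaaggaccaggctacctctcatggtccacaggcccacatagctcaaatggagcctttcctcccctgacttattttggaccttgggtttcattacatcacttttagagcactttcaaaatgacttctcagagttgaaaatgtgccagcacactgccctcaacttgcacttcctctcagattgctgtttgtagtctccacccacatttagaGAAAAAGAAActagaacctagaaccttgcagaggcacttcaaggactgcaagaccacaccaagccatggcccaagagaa
Fosb, chr7:19309996-19310295, minus strand: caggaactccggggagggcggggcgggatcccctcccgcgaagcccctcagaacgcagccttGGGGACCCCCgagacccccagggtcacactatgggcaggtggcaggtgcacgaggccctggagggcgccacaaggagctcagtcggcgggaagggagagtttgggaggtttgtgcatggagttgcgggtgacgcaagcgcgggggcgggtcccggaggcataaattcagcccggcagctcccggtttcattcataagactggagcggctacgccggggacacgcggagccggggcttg
Hpgd, chr8:56294302-56294601, plus strand: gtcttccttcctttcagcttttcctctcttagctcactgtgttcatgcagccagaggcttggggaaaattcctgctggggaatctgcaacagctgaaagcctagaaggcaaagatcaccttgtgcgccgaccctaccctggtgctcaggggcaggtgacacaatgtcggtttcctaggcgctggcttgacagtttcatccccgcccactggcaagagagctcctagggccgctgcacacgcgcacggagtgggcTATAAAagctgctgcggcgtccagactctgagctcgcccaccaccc
Dkk2, chr3:132085042-132085341, plus strand: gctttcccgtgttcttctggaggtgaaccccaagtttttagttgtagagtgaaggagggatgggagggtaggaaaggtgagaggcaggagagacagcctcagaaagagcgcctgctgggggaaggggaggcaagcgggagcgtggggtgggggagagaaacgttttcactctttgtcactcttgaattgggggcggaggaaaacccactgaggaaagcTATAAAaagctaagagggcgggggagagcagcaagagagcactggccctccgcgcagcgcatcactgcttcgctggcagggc
Lcn2, chr2:32387690-32387989, minus strand: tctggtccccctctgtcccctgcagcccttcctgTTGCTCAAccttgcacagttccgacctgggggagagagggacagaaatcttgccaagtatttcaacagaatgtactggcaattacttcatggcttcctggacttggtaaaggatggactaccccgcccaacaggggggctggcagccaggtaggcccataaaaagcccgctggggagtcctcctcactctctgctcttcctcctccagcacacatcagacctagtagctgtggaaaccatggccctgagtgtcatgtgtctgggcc

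*Slfn4* held an AP-1 match that began 34 bases before the start and a TATA box 19 bases before it. *Phf11a* held an ISRE 29 bases before the start, *Lcn2* a C/EBP match 216 bases before it and *Fosb* an NF-κB match 188 bases before it. *Dkk2* had a TATA box 32 bases before the start and *Hpgd* one just after RefSeq's start, while no match lay in the *Pax5* window. For *Hpgd* and *Pax5*, RefSeq's start differs from the gene coordinates given above. By those coordinates the *Hpgd* match lies before the gene, and the whole *Pax5* window lies outside the gene. Over all 27025 promoters of the table, 7.93% held the AP-1 motif, 10.8% the C/EBP motif, 4.35% the NF-κB motif, 14.2% the TATA box, 1.57% the CArG box, 1.88% the cyclic AMP element and 3.49% the ISRE. Only 70.4% of the genes that rose and 69.9% of those that fell had an entry, which is under 80%, so a comparison of motif shares between them is void.

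Most members of the interferon response list rose. Of the 38 members tested, 33 rose and 0 fell, against 16.9% and 10.2% of all genes. The median log2 fold change was 1.96, against 0.0019 over all genes. At 2 h, 18 of the 33 that rose had been within 1.5-fold of their 0 h mean, 14 had been above it and 1 had been below it. *Mx1*, a GTPase that restricts RNA viruses, was measured at 15.8, 6.29 and 20.4 CPM at 2 h and 355, 334 and 373 CPM at 4 h (log2 fold change 4.67 ± 0.227 (SE), edgeR adjusted p = 5.26e-10). Replicate 2 at 2 h was the lowest of its group here, and every 4 h library lay above every 2 h library. *Iigp1* and *Gbp2*, interferon-inducible GTPases, rose from 104 to 1159.9 CPM and from 137 to 1290.0 CPM. *Gbp5* (3.49 ± 0.071) and *Gbp7* (3.45 ± 0.0859) rose by similar log2 fold changes (SE).

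Several transcription factors of the interferon pathway rose. *Stat2* was at 113, 65.9 and 122 CPM at 2 h and 618, 668 and 699 CPM at 4 h (log2 fold change 2.75 ± 0.158 (SE), edgeR adjusted p = 3.15e-09), with no overlap between the times. *Irf7* rose 3.08-fold, *Irf2* 3.08-fold and *Irf9* 2.48-fold by mean CPM. *Irf1*, which many cytokines induce within the hour, did not pass the test (184 ± 19.3 CPM at 2 h and 189 ± 15.1 at 4 h, SD, n = 3, edgeR adjusted p = 0.489), after 53.9 CPM at 0 h. The cytosolic RNA sensors *Ddx58* (RIG-I) and *Ifih1* (MDA5) rose 3.4-fold and 3.29-fold. The antigen-processing genes *Tap1*, *Tap2*, *Psmb8*, *Psmb9* and *Psmb10* rose as well, by log2 fold changes from 0.67 to 2.25. *Ifnb1*, which encodes interferon-β itself, went the other way: it fell from 1.98, 1.59 and 1.69 CPM at 2 h to 0.85, 0.413 and 1.06 CPM at 4 h (log2 fold change −1.17 ± 0.303 (SE), edgeR adjusted p = 0.00413) and had been highest at 1 h.

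The ISRE windows of this list are shown because the motif recurs next to the starts of its members. Of the 38 members, 31 had a promoter entry and 15 of these held an ISRE (48.4%), against 3.49% of all promoters in the table. A match is a description of the letters, not a bound site. The match nearest the start is printed in capitals with up to 10 bases on each side, on the gene's strand and in GRCm38.p6 coordinates.
Irf2, chr8:46739495-46739523, plus strand: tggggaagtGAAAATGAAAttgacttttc
Stat2, chr10:128270266-128270295, plus strand: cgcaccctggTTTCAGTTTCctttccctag
Ifit1, chr19:34640794-34640823, plus strand: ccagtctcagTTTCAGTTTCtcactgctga
Ifit3, chr19:34583397-34583426, plus strand: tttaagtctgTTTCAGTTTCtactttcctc
Ifih1, chr2:62646206-62646233, minus strand: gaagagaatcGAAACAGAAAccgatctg
Ddx58, chr4:40239804-40239833, minus strand: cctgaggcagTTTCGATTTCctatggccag
Isg15, chr4:156200865-156200894, minus strand: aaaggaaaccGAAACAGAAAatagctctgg
Rsad2, chr12:26456553-26456582, minus strand: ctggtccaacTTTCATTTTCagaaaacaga
Gbp2, chr3:142620594-142620623, plus strand: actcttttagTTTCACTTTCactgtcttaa
Gbp3, chr3:142559995-142560024, plus strand: acagtttcagTTTCTATTTCccagatccct
Gbp5, chr3:142496759-142496788, plus strand: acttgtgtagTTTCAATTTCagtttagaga
Gbp7, chr3:142530273-142530302, plus strand: gtgtgtgcagTTTCAGTTTCagttctccat
Irgm1, chr11:48871425-48871454, minus strand: tcaagaaataGAAACCGAAActgattctca
Igtp, chr11:58199512-58199541, plus strand: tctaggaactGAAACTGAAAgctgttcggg
B2m, chr2:122147538-122147567, plus strand: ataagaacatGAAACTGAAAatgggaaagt

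Of these 15 genes, 14 rose, a share near that of the whole list, where 33 of 38 did. *B2m*, the light chain of class I antigen-presenting molecules, carries an ISRE 139 bases before its start and did not pass the test, with a log2 fold change of −0.000827. In 13 of the 15 promoters the match began before the start, between 24 and 241 bases away.

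Whole families of interferon-inducible genes behaved alike. These families were picked by symbol after the values were seen, so their counts are a description. A gene with few reads at 2 h could enter the test through its 4 h libraries alone. The counts and medians can thus lean towards rises. Of all genes tested, 16.9% rose and 10.2% fell. All 12 tested genes of the Ifi200 family, cytosolic and nuclear DNA-binding proteins on chromosome 1, rose (median log2 fold change 4.06), from *Ifi211* (1.74 ± 0.0518) to *Ifi203-ps* (5.99 ± 0.158) (SE), with *Ifi214* at 3 reads in all at 2 h. All 11 guanylate-binding protein genes rose (median 3.35), and so did all 8 Schlafen genes (median 3.57) and all 4 *Phf11* genes (median 3.89). Of 11 genes for oligoadenylate synthases, which make the activator of RNase L, 10 rose and 1 fell. The one that fell, *Oas1f*, was rare, at 0.638 CPM at 2 h. In the IFT88siRNA libraries, which the choice also had in view, the same counts of 12, 11, 8, 4 and 10 rose.

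Acute-phase and complement genes rose without exception among the members that passed the test. Of 17 members tested, 13 rose and 0 fell, against 16.9% and 10.2% of all genes, with a median log2 fold change of 1.49. *Saa3*, an acute-phase apolipoprotein made by stromal cells, was at 5.58, 3.92 and 7.38 CPM at 2 h and 154, 161 and 186 CPM at 4 h (log2 fold change 4.91 ± 0.134 (SE), edgeR adjusted p = 1.7e-12). The 4 h libraries lay far above all 2 h libraries. *Saa1* had 1, 1 and 0 reads at 2 h and 33, 33 and 40 at 4 h, and *Saa2* (4.65 ± 0.362, SE) was also rare. The *Saa* genes are close copies, so reads between them are uncertain. *C3*, the central complement component, was at 10.6, 7.11 and 9.46 CPM at 2 h and 120.1, 116 and 131 CPM at 4 h (log2 fold change 3.79 ± 0.0992 (SE), edgeR adjusted p = 1.25e-12), after 16.1 CPM at 0 h, so it dipped before it rose.

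*Hp* (haptoglobin) rose 11.3-fold, *Steap4*, a metalloreductase, 10.7-fold, *Ptx3*, a soluble pattern-recognition receptor, 2.46-fold, *Cp* (ceruloplasmin) 2.52-fold and *Slc39a14*, the zinc importer ZIP14, 2.76-fold by mean CPM. *Cfb* (3.38 ± 0.234, SE), complement factor B, shares its locus with *Gm20547*, so its counts of 4.38 CPM at 4 h may leave out reads of both. Many of these genes were highest long after 4 h. *Lcn2*, *Saa3*, *C3*, *Hp*, *Cp*, *Steap4* and *Cfb* all had their highest NT mean at 24 h, where *C3* averaged 1307 CPM.

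Chemokines split into those that rose and those that did not reach 1.5-fold. Of the CXC chemokines, 11 were tested, 7 rose and 0 fell (median 1.57), against 16.9% and 10.2% of all genes. *Cxcl10*, *Cxcl9* and *Cxcl11*, the ligands of CXCR3 that draw T cells, rose 2.93-fold, 14.1-fold and 17.9-fold. *Cxcl10* was the most abundant of them at 1218, 1151 and 1211 CPM at 2 h and 3529.8, 3400.1 and 3544 CPM at 4 h (log2 fold change 1.57 ± 0.0428 (SE), edgeR adjusted p = 1.7e-12). Neutrophil attractants were less uniform. *Cxcl5* rose 8.93-fold to 655 ± 25.6 CPM (SD, n = 3), *Ppbp* 5.63-fold and *Cxcl3* 3.72-fold. By contrast *Cxcl1* stood at 736 ± 41 and 669 ± 27.7 CPM (log2 fold change −0.11 ± 0.0524, edgeR adjusted p = 0.0771) and *Cxcl2* at 38.3 ± 5.26 and 39.3 ± 3.78 CPM (0.06 ± 0.0936, adjusted p = 0.614).

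Among CC and CX3C chemokines, 5 of 12 rose and 0 fell, against 16.9% and 10.2% of all genes. Those that rose were *Ccl4* (3.98-fold), *Ccl5* (2.55-fold), *Ccl17* (2.26-fold), *Ccl22* (1.89-fold) and *Ccl20* (1.48-fold by mean CPM), of which *Ccl5*, a leukocyte attractant, was the most abundant at 303 CPM. *Ccl4* and *Ccl22* were under 2 CPM at both times. *Ccl2*, the monocyte attractant, had a log2 fold change of −0.21 ± 0.0521 and so did not reach 1.5-fold, at 1186 ± 56.1 CPM at 2 h and 1006 ± 50.5 at 4 h (SD, n = 3).

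Cytokine genes changed in both directions. Of 21 members tested, 12 rose and 4 fell, against 16.9% and 10.2% of all genes. *Il6*, which signals through gp130 and STAT3, was at 13.9, 9.61 and 17.4 CPM at 2 h and 77.4, 83.7 and 82.3 CPM at 4 h (log2 fold change 2.60 ± 0.131 (SE), edgeR adjusted p = 7.58e-10). *Csf3*, the granulocyte growth factor, rose 10.1-fold, *Il15*, a lymphocyte growth factor, 4.5-fold, *Tslp* 3.22-fold and *Il1rn*, the natural IL-1 receptor antagonist, 3.05-fold. *Il1a* (3.13 ± 0.56, SE) remained rare at 0.735 CPM at 4 h. The genes that fell were *Csf1*, *Ifnb1*, *Ctf1* and *Tnf*. *Csf1*, the macrophage growth factor, was among the most abundant transcripts, at 5531, 5693 and 5448 CPM at 2 h and 2267, 2248 and 2359 CPM at 4 h (log2 fold change −1.25 ± 0.0425 (SE), edgeR adjusted p = 1.25e-11), a fall of 2.43-fold with no overlap. *Tnf* went from 7.24 ± 1.43 to 4.08 ± 1.04 CPM (SD, n = 3; log2 fold change −0.81 ± 0.185 (SE), edgeR adjusted p = 0.00176).

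Of the cytokine receptors and SOCS proteins, 14 of 32 tested rose, 0 fell and 18 were not called, with a median log2 fold change of 0.46. Over all genes, 16.9% rose and 10.2% fell. *Osmr*, the oncostatin M receptor, was at 68.9, 63.5 and 71.9 CPM at 2 h and 343, 365 and 353 CPM at 4 h (log2 fold change 2.40 ± 0.056 (SE), edgeR adjusted p = 4.61e-13). *Il13ra1* rose 6.02-fold, *Il1rl1*, the receptor of IL-33, 3.53-fold, *Tnfrsf9* 4.25-fold and *Il1rap*, the accessory chain of the IL-1 receptor itself, 1.64-fold. *Il18r1* and *Il13ra2* rose from under 1 CPM. *Socs3*, which limits signalling through gp130, rose 1.91-fold from 65.3 ± 9.18 CPM (SD, n = 3).

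The enzymes of nitric oxide and prostaglandin synthesis did not move together. Of 20 members tested, 9 rose and 4 fell, against 16.9% and 10.2% of all genes. *Nos2*, the inducible nitric oxide synthase (chr11:78920787-78960254, plus strand), was at 19.5, 7.25 and 23.5 CPM at 2 h and 329, 324 and 390.4 CPM at 4 h (log2 fold change 4.41 ± 0.239 (SE), edgeR adjusted p = 1.68e-09). Replicate 2 at 2 h was again the lowest, and without that library the log2 fold change was 4.03. *Arg2*, an arginase that uses the same substrate, rose 4.68-fold. The supporting genes *Slc7a2* (arginine uptake, 1.52 ± 0.0527, SE) and *Gch1* (cofactor synthesis, 1.12 ± 0.0527) rose, while *Slc7a1*, another arginine carrier, fell (−0.80 ± 0.048). On the prostaglandin side *Ptgs2*, the inducible cyclooxygenase, stood at 809.9 ± 37.6 CPM at 2 h and 837 ± 42.4 at 4 h (SD, n = 3, edgeR adjusted p = 0.235). *Ptges*, the synthase that follows it in the pathway, rose 3.18-fold, *Ptges2* 2.04-fold and *Pla2g4a*, the phospholipase that frees arachidonic acid, 1.72-fold. *Hpgd*, which degrades the product, was among the largest falls given above.

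Matrix proteases also divided. Of 25 members tested, 8 rose and 3 fell, against 16.9% and 10.2% of all genes, so the share that fell is near the background. *Mmp13*, the collagenase that cleaves type II collagen, was at 1.3, 1.05 and 0.978 CPM at 2 h and 17.8, 15 and 17.6 CPM at 4 h (log2 fold change 3.95 ± 0.147 (SE), edgeR adjusted p = 3.15e-11), and *Mmp3* (stromelysin 1) rose from 0.485 ± 0.174 to 3.03 ± 0.0885 CPM (SD, n = 3; 2.64 ± 0.256, SE). Both were highest at 8 h. *Mmp10* and *Mmp9* rose at under 3 CPM. The inhibitors *Timp1* and *Serpinb2* rose 2.54-fold and 14.3-fold. Of the aggrecanases, *Adamts4* rose 2.35-fold to 37.8 CPM whereas *Adamts5* fell 1.76-fold to 78.9 CPM. *Adamts1* (−1.08 ± 0.0765) and *Adamts7* (−0.59 ± 0.118) fell too.

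**Figure D2:**
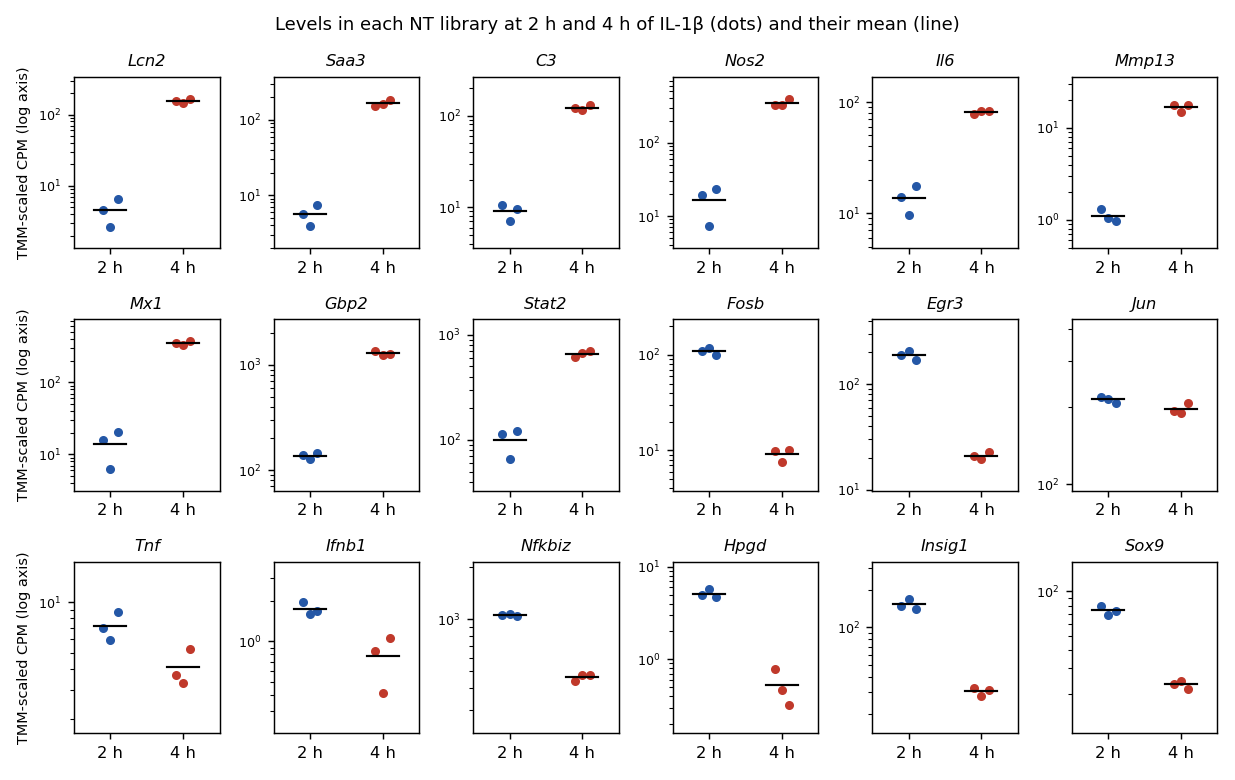
Each panel shows 1 gene, with dots for the 3 NT libraries at 2 h (blue) and the 3 at 4 h (red) in TMM-scaled CPM on a log axis that differs between panels, and a line at their mean. The times do not overlap for *Nos2*, *Mx1* or *Fosb*, whereas the *Jun* libraries span similar values at both times.

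Among the immediate-early transcription factors, falls outnumbered rises. Of 26 members tested, 2 rose and 12 fell (median −0.44), against 16.9% and 10.2% of all genes. All 12 members that fell had been over 1.5-fold above their 0 h mean at 2 h. Beside *Fosb* and the *Egr* genes, the orphan receptors *Nr4a3* and *Nr4a1* fell 3.8-fold and 3.01-fold, *Maff* 3.0-fold, *Srf* 2.65-fold, *Junb* 1.88-fold and *Fosl1* 1.91-fold. The list did not fall as a whole. *Jun* stood at 218, 215 and 206 CPM at 2 h and 193, 189 and 207 CPM at 4 h (log2 fold change −0.09 ± 0.0499 (SE), edgeR adjusted p = 0.116), *Fos* at 52 ± 2.49 and 44.2 ± 5.82 CPM, and *Egr1* at 526 ± 20.9 and 436 ± 69.8 CPM (SD, n = 3), none of which reached 1.5-fold. *Klf2* and *Myc* rose 2.07-fold and 1.52-fold.

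Some feedback genes of the signalling pathways fell as well. Of the MAP kinase phosphatases and Sprouty genes, 15 were tested, 4 fell and 1 rose, against 10.2% and 16.9% of all genes. *Dusp4* (−1.59 ± 0.098, SE), *Dusp5* (−1.27 ± 0.0479), *Dusp10* (−1.06 ± 0.0559) and *Dusp14* (−0.71 ± 0.0841) are the members that fell. Of the NF-κB subunits and inhibitors, 21 were tested, 5 fell and 3 rose (median −0.18). The share that rose is near the 16.9% of all genes. *Nfkbiz*, which encodes the co-activator IκBζ, was at 1056, 1078 and 1038 CPM at 2 h and 441, 478 and 475 CPM at 4 h (log2 fold change −1.16 ± 0.0476 (SE), edgeR adjusted p = 8.36e-11), so that all 4 h libraries lay below all 2 h libraries. It was nevertheless far above its 0 h mean of 39.4 CPM. *Tnfaip3*, the ubiquitin-editing inhibitor A20, went from 596 ± 11.4 to 333 ± 10.3 CPM (SD, n = 3; log2 fold change −0.82 ± 0.0444 (SE), edgeR adjusted p = 1.68e-09).

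*Rel* (−0.93), *Nfkbie* (−0.70) and *Nfkbid* (−1.09) fell as well, while *Bcl3* (1.13), *Tnip1* (0.62) and *Traf2* (0.59) rose. *Nfkbia*, the IκBα inhibitor, changed by −0.34 ± 0.0478 and *Nfkb1* by 0.36 ± 0.0454 (log2, SE), both under the fold threshold. Among 16 regulators of mRNA decay, 1 fell, a share under the 10.2% of all genes. It was the deadenylation factor *Btg2* (−0.86 ± 0.0526), and *Zfp36* (tristetraprolin) had −0.56 ± 0.064. Of the 21 NF-κB list members, 18 had a promoter entry and 9 of these held the NF-κB motif (50.0%, against 4.35% of all promoters). In the interferon list 7 of 31 promoters held it too (22.6%), so the motif is not particular to the NF-κB list. None of the 18 held an ISRE, which says little for a motif in 3.49% of all promoters. The windows are printed as for the interferon list, to be read against them.
Nfkb2, chr19:46304716-46304745, plus strand: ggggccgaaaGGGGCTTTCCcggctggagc
Rel, chr11:23771041-23771070, minus strand: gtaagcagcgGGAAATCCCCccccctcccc
Nfkbia, chr12:55492657-55492686, minus strand: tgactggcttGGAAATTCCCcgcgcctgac
Nfkbie, chr17:45555584-45555613, plus strand: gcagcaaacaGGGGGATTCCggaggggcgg
Bcl3, chr7:19822734-19822763, minus strand: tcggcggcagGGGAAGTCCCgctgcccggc
Tnfaip3, chr10:19015403-19015432, minus strand: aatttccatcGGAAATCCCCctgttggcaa
Tnip1, chr11:54962977-54963006, minus strand: ccatcatgggGGAATTCCCCtcctgcctca
Tnip3, chr6:65590334-65590363, plus strand: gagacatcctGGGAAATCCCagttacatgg
Cyld, chr8:88696863-88696892, plus strand: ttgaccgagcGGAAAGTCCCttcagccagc

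Cholesterol synthesis had the largest share of falls among the 26 gene lists. Of 26 members tested, 0 rose and 21 fell, against 16.9% and 10.2% of all genes, with a median log2 fold change of −1.16. Of those that fell, 8 had been over 1.5-fold above their 0 h mean at 2 h and 13 had been within 1.5-fold of it. *Insig1*, which retains the sterol sensor in the endoplasmic reticulum, was at 149.6, 169 and 141 CPM at 2 h and 32.5, 28.3 and 31.3 CPM at 4 h (log2 fold change −2.30 ± 0.0749 (SE), edgeR adjusted p = 8.52e-12). *Sqle* (squalene epoxidase) was at 151, 150.2 and 135 CPM at 2 h and 39.8, 35.3 and 34.6 CPM at 4 h (log2 fold change −1.97 ± 0.0637 (SE), edgeR adjusted p = 8.11e-12), with all 4 h libraries under every 2 h library. *Idi1* fell 3.21-fold and *Cyp51* 3.28-fold. *Srebf2*, the transcription factor of the pathway, fell 2.23-fold. *Srebf1* had a log2 fold change of −0.46 ± 0.0483 (SE) and did not reach 1.5-fold. Outside the list, the fatty acid desaturase *Scd2* belonged to the large falls too, at 1013, 1063 and 931 CPM at 2 h and 221, 206 and 192 CPM at 4 h (log2 fold change −2.25 ± 0.0617 (SE), edgeR adjusted p = 1.79e-12).

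**Figure D3:**
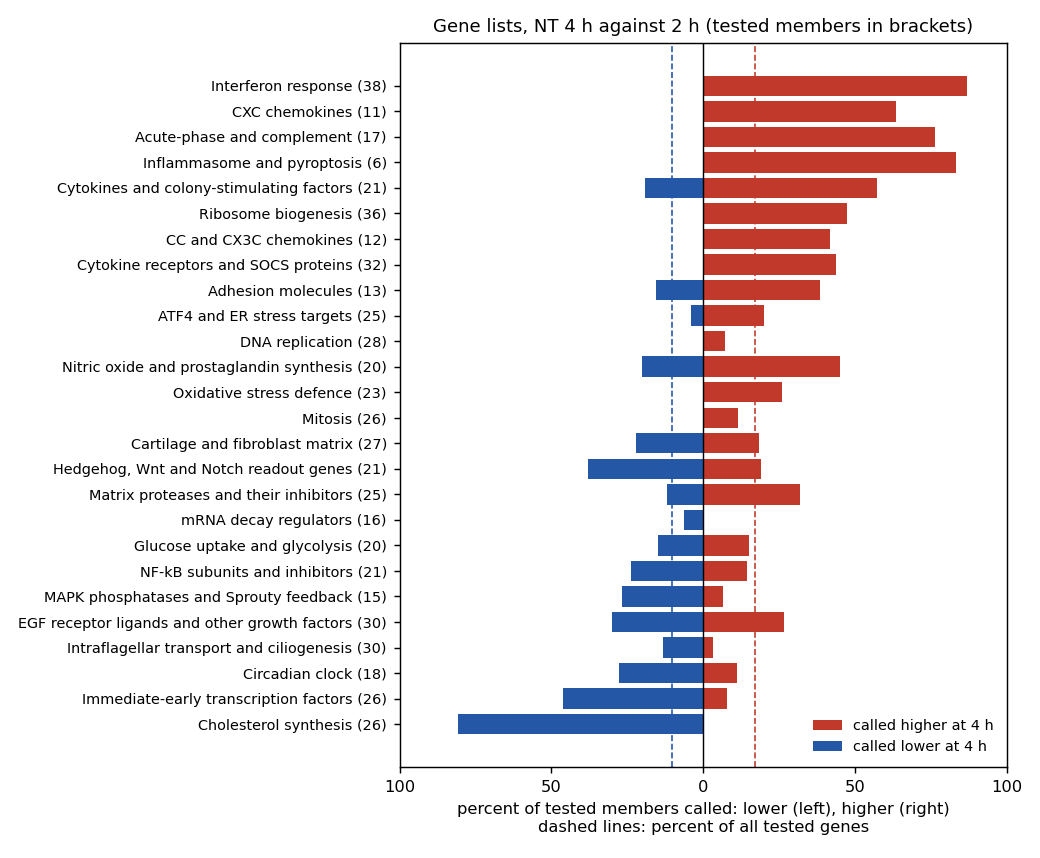
Bars give, for 26 gene lists ordered by median log2 fold change, the percent of tested members called higher (red, to the right) or lower (blue, to the left) at 4 h than at 2 h in NT. Dashed lines mark the 16.9% and 10.2% of all tested genes. Interferon response genes reach furthest right with 33 of 38 and cholesterol synthesis furthest left with 21 of 26.

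Of the ribosome biogenesis genes, 17 of 36 rose, 0 fell and 19 were not called (median 0.58), and the largest, *Wdr43*, a factor of the small subunit processome, went from 67.7 ± 4.13 to 174 ± 5.06 CPM (SD, n = 3; log2 fold change 1.38 ± 0.0532 (SE), edgeR adjusted p = 4.46e-11). *Rrp12*, *Rrp9* and *Rrp1b* rose 2.38-fold, 2.19-fold and 2.0-fold. Of 6 inflammasome genes tested, 5 rose, *Casp4* (2.77-fold by mean CPM) and, by log2 fold change, *Aim2* (1.02 ± 0.172, SE), *Nlrp3* (0.82 ± 0.255), *Gsdmd* (0.79 ± 0.071) and *Il18* (0.64 ± 0.103). In the oxidative stress list 6 of 23 rose, led by *Mt2* (metallothionein 2, 3.16-fold) and *Sod2* (mitochondrial superoxide dismutase, 2.51-fold). Among ATF4 and ER stress targets 5 of 25 rose and 1 fell. Of all tested genes 16.9% rose and 10.2% fell, so the share of ATF4 and ER stress targets that rose is near the background.

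Cell cycle lists had few calls. Of 26 mitosis genes 3 rose, *Cenpe* (1.23), *Aurka* (0.74) and *Ttk* (0.67), and of 28 DNA replication genes 2 rose, *E2f2* (0.70) and *Mcm10* (0.63), with none falling in either list. Both shares are under the 16.9% of all genes. Of 20 glycolysis genes 3 rose and 3 fell, against 16.9% and 10.2% of all genes, so the share that rose is near the background. *Slc2a6* (1.70), *Hk2* (0.72) and *Slc2a3* (0.64) rose and the enzymes *Pfkm* (−1.03), *Pfkl* (−0.65) and *Tpi1* (−0.60) fell.

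Growth factors changed in both directions, with 8 of 30 rising and 9 falling. *Hbegf*, a ligand of the EGF receptor, fell 2.72-fold from 252 ± 18.6 CPM (SD, n = 3), *Tgfb2* 2.71-fold, *Tgfb3* 2.16-fold and *Ctgf* 1.86-fold. *Btc*, another ligand of the same receptor, rose from 1.77, 2.23 and 1.64 CPM at 2 h to 26.1, 24.8 and 25.8 CPM at 4 h (log2 fold change 3.78 ± 0.115 (SE), edgeR adjusted p = 4.22e-12), and *Fgf10* and *Fgf2* rose 2.48-fold and 2.41-fold. In the Hedgehog, Wnt and Notch list 4 of 21 rose and 8 fell. Of all genes 16.9% rose and 10.2% fell, so the share of this list that rose is near the background. The Notch ligand *Jag1* and the Notch target *Hes1* fell 3.09-fold and 3.06-fold, and *Gli2*, *Smo*, *Smad6*, *Smad7*, *Id1* and *Notch3* fell too. The Hedgehog receptor *Ptch1* (0.68 ± 0.0525, SE) rose.

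Of the matrix list, 27 were tested, 5 rose and 6 fell, against 16.9% and 10.2% of all genes, so the share that rose is near the background. *Sox9*, the master transcription factor of chondrocytes, was at 79.6, 69.6 and 74 CPM at 2 h and 23.6, 24.7 and 21.8 CPM at 4 h (log2 fold change −1.64 ± 0.0678 (SE), edgeR adjusted p = 8.84e-11). It had been 22 CPM at 0 h, so the value at 4 h was back near the start. Its partner *Sox6* (−1.63 ± 0.17, SE), the link protein *Hapln1* (−1.07 ± 0.0707) and *Col11a1* (−0.76 ± 0.061) fell. *Thbs1* (thrombospondin 1), among the most abundant transcripts, fell from 11489 ± 1064 to 5711 ± 180.3 CPM (SD, n = 3). *Tnc* (tenascin C), *Prg4* (lubricin), *Dcn* (decorin), *Lum* and *Sox5* rose. The summed level of the 9 chondrocyte markers in the file was 148 to 159 TPM at 2 h and 82.5 to 91.5 TPM at 4 h. The part of these markers in the other changes was not tested.

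Adhesion molecules gave 5 rises and 2 falls among 13, against 16.9% and 10.2% of all genes. *Vcam1*, a ligand of leukocyte integrins, rose 2.89-fold to 706 CPM and *Itgb3* 6.15-fold, while *Icam1* stood at 119 ± 15.8 and 143 ± 13.2 CPM. The selectin *Sele* had 33, 34 and 44 reads at 2 h and 2, 3 and 4 at 4 h, and *Cdh2* fell 1.86-fold. Clock genes fell more often than they rose, 5 against 2 of 18, with *Dbp* (−2.16 ± 0.267, SE), *Bhlhe40*, *Bhlhe41*, *Tef* and *Per3* lower. Of 30 intraflagellar transport and ciliogenesis genes, 4 fell, a share near the 10.2% of all genes. They were *Wdr35*, *Wdr19*, *Ift122* and *Ift140*, which encode subunits of the IFT-A complex and had log2 fold changes from −0.82 to −0.63. The IFT-A genes *Ift43* and *Ttc21b* of the same list were tested and not called. *Tmem67*, a transition zone protein, rose 2.98-fold, with *Rbm12b2* on its other strand.

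The Hoxa cluster stood out among developmental genes, a family picked after its values were seen. Of 9 tested genes between positions 52155590 and 52240854 of chromosome 6, 8 fell and none rose, with a median log2 fold change of −1.43. Their median change from 0 h was 0.0425 at 2 h and −1.18 at 4 h. *Hoxa7* (−1.73 ± 0.0858, SE) and *Hoxa10* (−1.56 ± 0.0844) fell most among those without an overlapping gene on their own strand. Of the other clusters, Hoxc had 5 falls among 9 genes, Hoxb 3 rises among 8 and Hoxd 1 rise among 2. Over all genes, 16.9% rose and 10.2% fell. *Hoxa3* to *Hoxa6* overlap each other and antisense transcripts, so their separate values are uncertain.

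To see which genes started and which stopped, each called gene was set against its NT mean at 0 h, with 1.5-fold as the line between levels. The 2 h libraries enter both this sorting and the comparison, so the counts are a description. With untreated cells at 0 h only, the classes do not separate IL-1β from time in culture. Of the genes that rose, 1156 (45.9%) had been level with 0 h at 2 h, 986 (39.1%) had been below 0 h, and 378 (15%) had been above it already. Of the genes that fell, 818 (53.7%) had been level with 0 h at 2 h, 631 (41.4%) had been above it, and 74 (4.86%) below.

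The 1156 genes that started were led by *Ifi203-ps*, *Phf11a* and *Trim30c*. At 4 h, 832 of them were over 1.5-fold above 0 h, and 822 had their highest mean at that time. In the 378 genes that continued to rise, led by *Lcn2*, *Gbp2b* and *Saa3*, the mean log2 change from 0 h went from 1.41 at 2 h to 3.12 at 4 h. Of the 631 genes that stopped, led by *Fosb*, *Egr3* and *Papolb*, 402 were back within 1.5-fold of 0 h at 4 h, 169 were still above it and 60 were below it. The late falls were led by *Hpgd*, *Dkk2* and *4833423E24Rik*, and 547 of the 818 ended over 1.5-fold below 0 h. *Celf5*, *1700007K13Rik* and *Gm48898* led the 74 genes that continued to fall.

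Recoveries were fewer than starts by mean CPM but not by mean TPM, which gave 1259 recoveries and 987 starts. Of the 986 recoveries by mean CPM, 756 were back within 1.5-fold of 0 h at 4 h, 153 were above it and 77 below it. The mean log2 change from 0 h over all 986 went from −1.05 at 2 h to 0.15 at 4 h. The class rests on the call and the 2 h level, so its name does not fix where a gene stood at 4 h. The 3 of largest fold change were *Slfn4*, *Pax5* and *Ifi206*, which were rare at 0 h. Zinc-finger genes named *Zfp*, many of them transcriptional regulators, were common here, an observation made after the values were seen. Of 332 tested, 127 (38.3%) rose and 9 fell, against 16.9% and 10.2% of all genes, and 115 of the rises were recoveries. The median change of the 332 *Zfp* genes from 0 h was −0.42 at 1 h, −0.55 at 2 h and −0.0587 at 4 h. In the related *Zscan* and *Zkscan* genes 10 of 19 rose, 9 of them as recoveries. *Zfp493* gives an extreme case, at 1.27 CPM at 0 h, 0.227 at 2 h and 2.44 at 4 h.

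**Figure D4:**
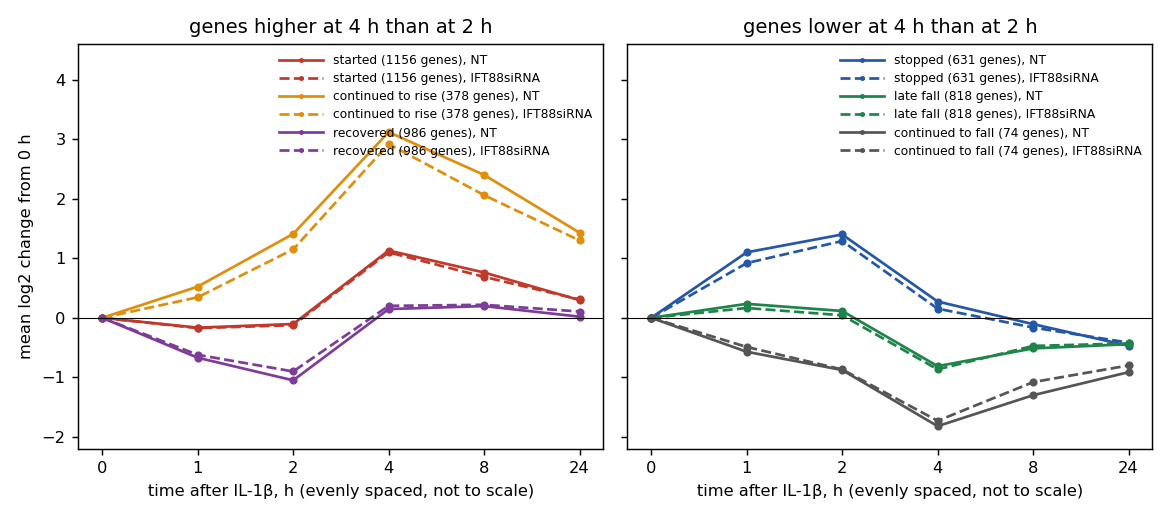
Lines give the mean log2 change from 0 h over the genes of each class (y axis) at each time after IL-1β in hours (x axis, evenly spaced), solid for NT, whose 0 h, 2 h and 4 h means defined the classes, and dashed for IFT88siRNA, whose libraries were not used. In genes that started, NT goes from −0.10 at 2 h to 1.13 at 4 h and IFT88siRNA from −0.12 to 1.10.

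The classes also differed in the genes' structure, given here without a test. The median gene length from first to last annotated base was 19520.5 bases over all tested genes. It was 25571 bases in genes that started and 30347 in late falls, against 14758 in recoveries and 21459 in genes that stopped. The largest exon count of any transcript of a gene had a median of 6 in recoveries, continued rises and genes that stopped. It was 9 in genes that started and in late falls, with 8 over all. Protein-coding genes made up 90.1% of the genes that started and 82.7% of the recoveries, and 85.1% of all genes tested.

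IFT88siRNA cells went through the same interval in 6 libraries of their own, which share none with the NT comparison. *Ift88* averaged 1.87 CPM there at 2 h against 8.14 in NT, and 1.86 against 6.62 at 4 h. Of 14853 genes tested in IFT88siRNA, 2491 (16.8%) rose and 1781 (12%) fell. Genes that rose in both numbered 2127, which is 84.4% of the NT list and 85.4% of the IFT88siRNA list. Genes that fell in both numbered 1276, or 83.8% and 71.6%. No gene called in NT was called in the opposite direction. Over the genes that rose in NT the median log2 fold change was 1.05 in NT and 1.02 in IFT88siRNA, and over those that fell it was −0.89 in both.

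A different change between the siRNA groups was called for 1 of 15446 genes (0.00647%), by a test of the interaction of time and siRNA in edgeR. At an unadjusted p under 0.05 there were 930 genes, which is 6.02% of those tested, and at an adjusted p alone there were 2. *Nr3c2*, the mineralocorticoid receptor, averaged 12.1 ± 0.26 CPM at 2 h and 10.0 ± 1.36 at 4 h in NT, and 14.9 ± 1.23 and 5.74 ± 1.14 in IFT88siRNA (SD, n = 3). Its fall was larger in IFT88siRNA by 1.10 ± 0.17 on the log2 scale (SE, edgeR adjusted p = 0.0455), and this call was lost in 8 of the 12 fits that leave out 1 library. *Tnfaip3* averaged 544 ± 7.67 and 217 ± 7.22 CPM in IFT88siRNA, and its fall differed by 0.48 ± 0.0572 (SE, adjusted p = 0.00322), which is under the fold threshold.

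**Figure D5:**
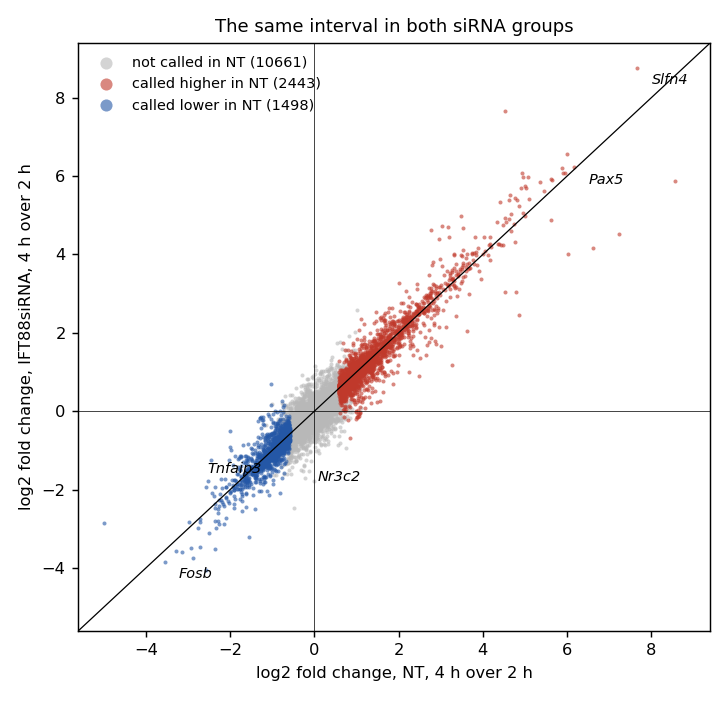
Each dot is a gene tested in both siRNA groups, with its log2 fold change from 2 h to 4 h in NT on the x axis and in IFT88siRNA on the y axis, red or blue where called in NT. The line marks equal change. *Nr3c2* and *Tnfaip3*, the genes with an adjusted p under 0.05 for a difference, lie below it.

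Genes that the study names from these libraries are not independent evidence of direction, and are given for completeness. Of 18, 7 rose and 2 fell, against 16.9% and 10.2% of all genes, so the share that fell is near the background. Most of them are described above. *Lif*, a cytokine of the IL-6 family, was at 631 ± 72.1 CPM at 2 h and 505 ± 38.2 at 4 h (−0.30 ± 0.0751, SE), and *Sox4* had 0.21 ± 0.0667. The ciliary genes *Ttbk2* (−0.05 ± 0.0814), *Nphp4* (−0.42 ± 0.11) and *Kif3a* (−0.09 ± 0.0629) did not reach 1.5-fold, nor did *Ift88* (−0.27 ± 0.117).

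By TPM, which is per length and so compares genes, the most abundant genes that rose were *Cxcl10* (6342 TPM at 4 h), *Mt2* (3733 TPM at 4 h), *Ly6e* (2492 TPM at 4 h), *Bst2* (2478 TPM at 4 h) and *Ifitm3* (2169.8 TPM at 4 h). *Cxcl10* alone went from 2145 to 6342 TPM. The most abundant that fell were *Thbs1* (1534 TPM), *Csf1* (1049.8 TPM), *Ctgf* (946 TPM), *Fscn1* (828 TPM) and *Tuba1a* (689 TPM). *Thbs1* encodes a matrix glycoprotein and *Fscn1* the actin-bundling protein fascin.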

How the data were processed

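Poly(A) libraries were sequenced as paired-end reads over 3 lanes. Per the submitters' processing notes the authors used HISAT2 2.1.0 on GRCm38, featureCounts of Subread 1.6.3 and Salmon 0.9.1. The authors deposited whole-number counts of reads per gene without normalization, and TPM values per gene from Salmon. The counting used default parameters, which ignore strand and drop reads that map to several places, so members of multigene families can lose reads. The 2 tables hold no column outside the 36 libraries.

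The tests were run on those counts with edgeR 4.0.16 in R 4.3.3 (TMM, filterByExpr, quasi-likelihood F-test, two-sided, Benjamini-Hochberg adjustment over all genes tested), for the 6 NT libraries alone, the 6 IFT88siRNA libraries alone, and all 12 for the interaction. The standard error is the absolute log2 fold change over the square root of F. The study's methods compare pairs of groups with DESeq2 at the same thresholds, and DESeq2 1.42.0 was an alternative here, as were limma 3.58.1 on log2(TPM + 1), other scalings, the replicate number as a block and leaving out each library. Groups came from the labels. Coordinates, gene lengths and overlaps came from GENCODE vM21 (GRCm38), where 6598 of the 14874 tested genes have another gene on the opposite strand. Depth was 19599461 to 24494947 counts per NT library, and its precision covers counting error only. The fits were tested on simulated data.

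The gene lists, markers and comparison were chosen with earlier results of these data known. Genes named are the 12 largest rises and falls with at least 50 counts on average, no overlap of groups and the same direction in IFT88siRNA (also without predicted genes), up to 4 called members per list and direction, the paper's RNA-seq genes, genes called for a difference, 3 per class, and the 5 of highest TPM per direction. Further list members, called or given for contrast, and the families were named after their values were seen. Results for a few list members are not reported here. Where a symbol has more than 1 identifier, the tested one was used. Plots used matplotlib 3.10.9 (Python 3.11.15).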

Additional observations from a re-analysis of the deposited data

Results flagged for a closer look

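*Nr3c2* and *Tnfaip3* were singled out because the 2 siRNA groups changed by different amounts between 2 h and 4 h, by a test of the difference itself. For *Nr3c2* the log2 fold change was −0.25 ± 0.106 (SE) in NT and −1.37 ± 0.125 in IFT88siRNA, a difference of −1.10 ± 0.17 (edgeR adjusted p = 0.0455). Leaving out each of the 12 libraries in turn gave differences from −1.26 to −0.99, with adjusted p from 0.00314 to 0.25 and over 0.05 in 8 of them. On log2(TPM) scales the adjusted p was 0.879 to 0.903 (limma), and DESeq2 gave it none. For *Tnfaip3* it was −0.82 ± 0.0444 in NT and −1.31 ± 0.0502 in IFT88siRNA, a difference of −0.48 ± 0.0572 (edgeR adjusted p = 0.00322), and leaving out a library gave −0.51 to −0.45 with adjusted p from 0.00101 to 0.0661. On log2(TPM) scales its adjusted p was 0.0788 to 0.206 (limma). With 3 libraries per group, no sample was screened as an outlier within its group, and what lies behind either difference was not tested.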

How the results depend on the processing

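Under the other tools, scalings, filters and units, NT gave 1888 to 2829 rises and 1100 to 1787 falls. Leaving out each library gave 2417 to 2673 rises and 1493 to 1567 falls in NT. The fold threshold moves these counts by its construction. Without it there were 4747 rises and 4370 falls in NT, 4769 and 4427 in IFT88siRNA, and 4197 and 3762 in both. Over 2-fold there were 1351 and 583, 1338 and 702, and 1109 and 471. With classes drawn at 2-fold, 1799 genes started, 235 continued to rise, 486 recovered, 374 stopped and 22 continued to fall, and with TPM 169 continued to fall. For the difference between siRNA groups the counts were 2 with all 36 libraries, 2 with limma on log2(TPM + 1), 3 without its filter, 0 with a pseudocount of 0.1, 12 with no filter on counts, 2 without the fold threshold, and 0 to 3 leaving out a library. DESeq2 gave 19 at adjusted p alone. The cause of these shifts was not tested. The replicate block gave 2514 rises and 1507 falls in NT and 2 genes for the difference. Deviations of same-numbered libraries at 2 h and 4 h of 1 siRNA group had correlations from −0.111 to 0.298 over 6 pairs. Pairs of unlike number had correlations from −0.308 to 0.325. With 3 libraries per group these values cannot show whether libraries of the same number shared a batch. Same-numbered libraries of the 2 siRNA groups were not compared. Of 345 listed genes called in NT, none changed direction under any alternative and 57 lost the call under at least 1, most often on log2(TPM + 1) without a filter (50 genes). At this depth, changes of genes under about 1 CPM rest on few reads.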

Other observations

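Marker genes of other cell types moved in this interval too. *Cd14*, a co-receptor for bacterial lipopolysaccharide and a macrophage marker, rose from 9.74 ± 1.71 to 26.8 ± 0.363 CPM (SD, n = 3; log2 fold change 1.48 ± 0.105 (SE), edgeR adjusted p = 3.15e-08), and the summed level of the 10 macrophage markers went from between 15.6 and 21.1 TPM to between 37.3 and 39.4. *Cd14* carried most of the rise in the macrophage sum, with means of 9.95 TPM at 2 h and 27.7 at 4 h. *Cd68* went from 5.74 to 7.64 TPM and *Lyz2* from 3.09 to 2.29 TPM. In IFT88siRNA 1 of the macrophage markers rose and 1 fell. *Ptprc*, *Adgre1*, *Itgam* and *Mrc1* were too low to be tested and *Tyrobp* was at 0. *Cdh1*, the epithelial cadherin, rose from 5.66 ± 0.727 to 16.3 ± 3.1 CPM and *Krt18* from 0.412 to 1.25 CPM. *Pdgfra*, a receptor of fibroblasts, rose 2.91-fold (log2 fold change 1.57 ± 0.077 (SE), edgeR adjusted p = 5.76e-10). Of 10 fibroblast markers 3 rose and none fell, though their summed TPM went from 5907 to 6248 at 2 h to 4736 to 4952 at 4 h, carried by *Vim*, *S100a4* and *Col1a2*, none of which was called. Among endothelial markers *Tek* fell at under 1 CPM, and of adipocyte and muscle markers *Lpl* fell from 1.7 to 0.72 CPM.

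Other families by symbol, picked after the values were seen, gave further descriptions. Here too, a gene rare at 2 h could enter the test through its 4 h libraries alone. All 5 tested *Serpina3* genes, protease inhibitors of the acute phase in near-identical copies, rose (median log2 fold change 3.48), with a median change from 0 h of 4.64 at 24 h. Of 12 *Parp* genes 8 rose, and of 45 *Trim* genes, many of them antiviral ubiquitin ligases, 23 rose and 3 fell, against 16.9% and 10.2% of all genes.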
